A study of Arabidopsis thaliana with 36 samples.

Results

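The genes described here are those whose transcripts stood at 50 percent or less of their starting level for the whole of 60 to 240 min after Arabidopsis leaves were moved into brighter light, in each of 2 wild-type ecotypes. For every gene the mean RPKM (read count scaled to gene length in kilobases and to the mapped reads of the library) of 3 libraries was taken per ecotype and time, and R was the mean at a given time plus 1 divided by the mean at 0 min plus 1. A gene was a member where any of the 36 readings exceeded 7 RPKM and R was at most 0.5 at 60, 120 and 240 min in both Col-0 and WS. Of 37336 genes in the table, 13817 had a reading above 7 RPKM and 232 of these, or 1.68% of them, met the rule. The rule was met by 475 genes in Col-0 and 392 in WS, so that the 232 genes shared by both were 48.8% of the Col-0 genes and 59.2% of the WS genes. The readings at 0, 60, 120 and 240 min set the ratios that chose the members, so their values at these times are given as a description with no test. The floor of 7 RPKM could be met by a reading of either ecotype at any time.

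Wild-type plants of the ecotypes Col-0 and WS (Wassilewskija) were grown hydroponically in a 12 h photoperiod under light with a PFD (photon flux density) set to 120 μmol m-2 s-1, and neither carried a mutation or transgene. A single leaf was taken at 0 min under growth light, and further leaves were taken after 15, 30, 60, 120 and 240 min of brighter light, with the PFD set to 500 μmol m-2 s-1. Each of the 12 combinations of ecotype and time had 3 libraries, and the study's methods describe 3 plants per ecotype with a leaf taken at each time. No library stood at the growth light after 0 min, so the brighter light, the time of day, the repeated removal of leaves and the move into the gas exchange chamber cannot be told apart in any change from 0 min.

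In plants, light-harvesting antenna proteins bind chlorophyll and pass the energy of absorbed photons to the photosystems, and the genes for them are transcribed in the nucleus and respond to light and to signals from the chloroplast. Leaf and stem growth responds to light through phytochrome-interacting factors (PIFs), the hormones auxin, gibberellin and brassinosteroid, and the proteins that loosen the cell wall. A circadian clock gives many of these genes a daily course, with LHY among its morning factors, while B-box zinc finger proteins related to CONSTANS link light signals to gene regulation.

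Reads in genes were not counted but estimated from RPKM, exon length and a depth inferred for each library. The estimates ranged from 7.35 M (megareads) to 41.7 M per library, with a median of 28.6 M. The lowest was that of WS replicate 1 at 0 min. In some libraries the estimate exceeded the inferred depth, as in Col-0 replicate 3 at 60 min (36.5 M against 30.3 M), and in others it lay below. Among the members, WS replicate 3 at 120 min held the highest of the 3 readings for 172 genes, WS replicate 2 at 30 min for 170, WS replicate 1 at 240 min for 158, Col-0 replicate 1 at 60 min for 156, Col-0 replicate 3 at 240 min for 147 and Col-0 replicate 1 at 120 min for 138. As an alternative, Col-0 replicate 1 at 60 and 120 min, WS replicate 3 at 120 min and WS replicate 1 at 0 min were left out. Then 252 genes met the rule, of which 207 were members. These 4 libraries do not follow the ranking above, since WS replicate 2 at 30 min (170) was kept and Col-0 replicate 1 at 120 min (138) was not. Meristem markers STM and WUS were at 0 in all libraries and seed markers did not exceed 0.06 RPKM. Markers of mesophyll, epidermis, guard cells, phloem and xylem were present.

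Over the 232 members, the median R in Col-0 was 0.71 at 15 min, 0.46 at 30 min, 0.29 at 60 min, 0.23 at 120 min and 0.28 at 240 min. In WS the medians were 0.73, 0.44, 0.24, 0.22 and 0.30 at the same times. In both ecotypes most members were thus already below their starting level before the first time used by the rule. At 15 min 184 of 232 members were below their 0 min mean in both ecotypes, and at 30 min 229 were. R was at most 0.5 in both ecotypes at 15 min for 23 members (9.91%, against 0.463% of all genes tested) and at 30 min for 113 members (48.7%, against 2.03%). These earlier ratios share the 0 min libraries with the rule and were given no test. A leaf holds several cell types, and fewer cells of a type and less RNA per cell cannot be told apart in these libraries.

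**Figure D1:**
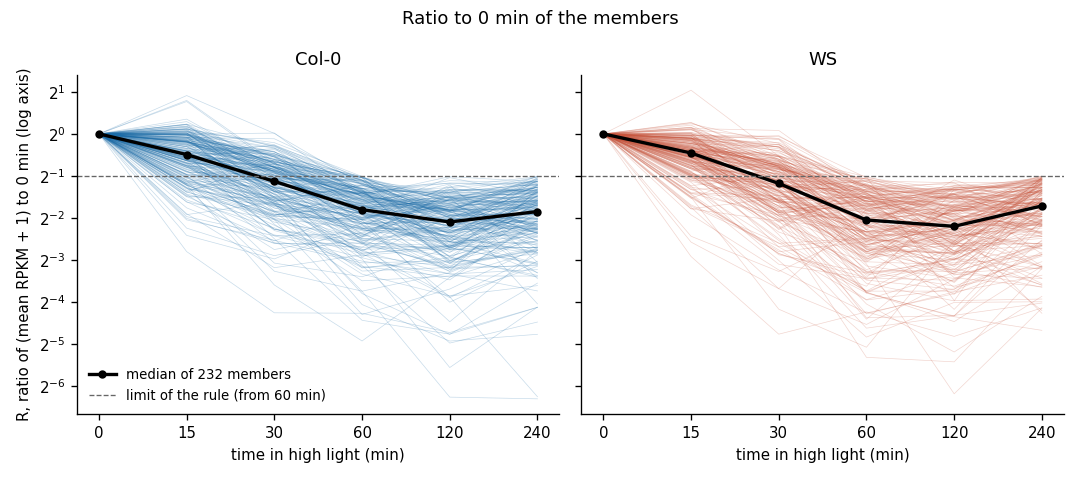
Course of R, the mean RPKM plus 1 relative to 0 min, against sampling time for Col-0 and WS, with times evenly spaced on the horizontal axis; thin lines are single members, the thick line is their median and the dashed line the limit of 0.5. The medians reach 0.23 (Col-0) and 0.22 (WS) at 120 min, and values from 60 min on lie at or below 0.5 because the rule required it.

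At 0 min the members made up 3.00% of the summed RPKM in Col-0 and 3.19% of that in WS, and at 240 min they made up 0.804% and 0.800%. Their levels at 0 min ranged from 3.98 to 2299.8 RPKM with a median of 29.8, and 41 members exceeded 100 RPKM. The median of all genes tested was 11.1 RPKM. In 161 members (69.4%, against 3.54% of all genes tested) every one of the 9 late libraries lay below every 0 min library in both ecotypes, and in the other 71 at least 1 late library overlapped. The largest of a member's 6 late ratios was at most 0.25 for 31 members and above 0.45 for 71. Just inside the limit stood XTH4 (0.498), AT5G42680 (0.499) and AT5G39530 (0.499), and just outside it AT5G11420, CLC-A and AT2G28150 (each 0.501).

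By the largest of the 6 late ratios of each gene, the lowest member was AT5G19190, which encodes an uncharacterized protein. In Col-0 its 3 libraries held 77.0, 143 and 31.9 RPKM at 0 min, 11.1, 11.2 and 11.4 at 15 min, 4.19, 4.45 and 1.70 at 30 min and 0.26 to 8.54 RPKM (median 2.63) over the 9 libraries of 60 to 240 min. In WS the values were 98.0, 92.7 and 72.3 RPKM at 0 min, 6.54, 7.38 and 18.3 at 15 min, 2.09, 3.19 and 1.51 at 30 min and 0.90 to 7.75 RPKM (median 2.34) later. Every library from 15 min on lay below every 0 min library in both ecotypes, and most of the drop in level was present at 15 min. R at 15 min had a value of 0.14 for Col-0 and 0.13 for WS, and no late R exceeded 0.0574.

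The next members by lowest late ratios were COL2, a CONSTANS-like B-box protein (no late R above 0.0854), AT5G48490, a lipid-transfer protein (0.0961), EXPA8, an expansin (0.11), and RPT2, a component of blue light phototropism signalling (0.11). They were followed by AT2G41250, a haloacid dehalogenase-like hydrolase (0.11), GASA6, a gibberellin-regulated peptide (0.12), AT1G55960, a lipid transport superfamily protein (0.13), AT5G16030 (0.14) and AT4G33666 (0.14). These 10 genes had no common course before 60 min. AT5G48490 stood at an R of 0.99 at 15 min in Col-0 and 0.42 in WS, whereas RPT2 stood at 0.51 and 0.51.

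By the first time from which R stayed at most 0.5 in both ecotypes, 21 members were at this level from 15 min, 92 from 30 min and 119 only from 60 min. The median level at 0 min of these classes was 28.6, 22.5 and 35.6 RPKM. The mean R over 15 and 30 min and both ecotypes was lowest in AT5G19190, in OFP16 (an ovate family protein), in the SAUR-like gene AT4G38860, in AT5G02515 (an RNA with no coding sequence), in ATCTH (a CCCH zinc finger protein) and in AT1G69160. It was highest in LHB1B1, AT3G54830, NF-YB2 and GDPD6.

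NF-YB2, a subunit of the NF-Y factor that binds CCAAT boxes, had means at 15 min near or above its starting means. In Col-0 it held 61.1, 42.1 and 58.3 RPKM at 0 min, 31.5, 66.2 and 62.9 at 15 min, 75.3, 38.9 and 49.7 at 30 min and 6.24 to 22.5 RPKM (median 13.3) from 60 min. In WS it held 62.7, 32.5 and 34.1 RPKM at 0 min, 109, 130.0 and 29.4 at 15 min, 26.2, 56.0 and 6.50 at 30 min and 4.45 to 14.2 RPKM (median 6.44) from 60 min. In WS replicates 1 and 2 were above all 0 min libraries at 15 min and replicate 3 was below them, while in both ecotypes all late libraries lay below all 0 min libraries. Its R at 15 min was 2.05 in WS and 0.99 in Col-0.

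The late means did not all stay at the same level. The lowest mean came at 120 min in 115 members for Col-0 and 104 for WS, at 60 min in 52 and 76, at 240 min in 57 and 45, and at 30 min in 8 and 7. The time of the lowest mean was the same in both ecotypes for 3 members at 30 min, 39 at 60 min, 83 at 120 min and 30 at 240 min. The ratio of 240 to 60 min, averaged over ecotypes on the log2 scale, exceeded 1.5 in 62 members, was below 1 over 1.5 in 35 and lay between in 135. It was lowest in LHY (0.0863), AT5G54585 (0.19), LHCB2.3 (0.28) and BMY3 (0.28). It was highest in BBX14 (10.8), HBI1 (3.96), a bHLH factor that promotes cell elongation, BBX15 (3.70) and AT1G21920 (3.56).

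Antenna genes were the most abundant members. LHCB2.2, which encodes an antenna protein of photosystem II, held in Col-0 2114, 2483 and 1368 RPKM at 0 min, 2416, 2202 and 1600.5 at 15 min, 1734, 2180.0 and 1247 at 30 min, 1337, 695 and 921 at 60 min, 762, 692 and 87.9 at 120 min and 283, 615 and 1001 at 240 min. The WS libraries held 2556, 2785 and 2494 RPKM at 0 min, 2424, 2617 and 2588 at 15 min, 2004, 2332 and 1940.3 at 30 min, 1046, 705 and 516 at 60 min, 289.8, 129.5 and 1048 at 120 min and 881, 202 and 493 at 240 min. Levels at 15 min overlapped those at 0 min, and all late libraries lay below all 0 min libraries in both ecotypes. Col-0 replicate 3 was the lowest library at 120 min and WS replicate 3 at the same time was the highest of its group.

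The other antenna members were LHCB4.2 (1722 RPKM at 0 min as the mean of both ecotypes), which encodes the minor antenna protein CP29, LHCB2.3 (1514) and LHB1B1 (1304). Their late R ran from 0.10 to 0.39, from 0.0805 to 0.40 and from 0.0797 to 0.48. In Col-0 LHB1B1 held 736, 1631 and 168 RPKM at 0 min and 6 of 9 late libraries reached that range, as did 1 of 9 for LHCB2.3, while in WS neither overlapped and LHCB4.2 overlapped in neither ecotype. LHCB2.2 and LHCB2.3 are near-identical copies, as is LHB1B1 to other LHCB1 genes, and how reads were divided between such copies is uncertain. Of 19 antenna genes tested, 4 were members and 4 more met the rule in WS only, and in all 19 every late R was below 1, with a median late R of 0.466. Of 24 photosystem subunit genes tested 1 was a member, PSBP-2, an oxygen-evolving complex protein (14.2 RPKM at 0 min), and 23 had all late R below 1.

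Chlorophyll synthesis had 2 members of 14 genes tested, and 3 more met the rule in WS only. CH1, chlorophyllide a oxygenase, which makes chlorophyll b, held 229, 271 and 113 RPKM in Col-0 libraries and 249, 219.9 and 204 in WS libraries at 0 min, against 14.8 to 77.3 RPKM (median 48.2) and 13.9 to 62.7 RPKM (median 31.2) over the late libraries. All its late libraries lay below all 0 min libraries. CHLM, the methyltransferase of the magnesium branch, stood at 244 RPKM and had late R of 0.24 to 0.46. Members outside this list, chosen here after their values were seen, were CAO, a component of the chloroplast signal recognition particle that brings antenna proteins to the thylakoid (241 RPKM, late R 0.24 to 0.41), and AT1G44000, a STAY-GREEN-like protein (266 RPKM, late R 0.24 to 0.45).

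GPRI1, also known as GLK1, is a transcription factor that activates nuclear genes for the photosynthetic apparatus. Its libraries held 262, 196 and 197 RPKM at 0 min, 104, 108 and 74.3 at 15 min, 64.5, 106 and 60.7 at 30 min and 50.8 to 152 RPKM (median 77.5) later in Col-0. In WS they held 256, 209 and 239 RPKM, 184, 77.0 and 101 and 127, 66.2 and 41.6 at these times and 23.9 to 135 RPKM (median 70.5) later. All 15 min libraries lay below all 0 min libraries in both ecotypes. R at 15 min was 0.44 and 0.52, while for LHCB2.2, CH1 and CHLM it lay between 0.74 and 1.04.

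The mesophyll markers, 2 of which are themselves antenna genes, were lower late in the course as well. The summed level of RBCS1A, LHCB1.3 and CAB3, all 3 above 0, ranged from 25651 to 40130 RPKM at 0 min and from 13305 to 24750 at 240 min in Col-0, and from 27572 to 41118 and from 7204 to 22203 in WS. All 6 guard cell markers were above 0, with sums of 26.5 to 32.1 RPKM at 0 min and 26.7 to 45.1 at 240 min in Col-0, and 21.7 to 38.6 and 31.2 to 49.0 in WS. The 4 epidermis markers summed to 241 to 342 RPKM at 0 min and 102 to 357 at 240 min in Col-0, and to 161 to 258 and 114 to 215 in WS. No marker of any cell type was a member, and the part of cell composition in the members' levels was not tested.

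Genes of cell wall loosening and expansion formed a further group. EXPA8 held in Col-0 41.5, 195 and 27.6 RPKM at 0 min, 63.9, 118 and 8.25 at 15 min, 6.60, 34.4 and 3.41 at 30 min and 0.03 to 8.43 RPKM (median 2.06) later. WS leaves held 82.1, 164 and 189.7 RPKM at 0 min, 42.0, 73.7 and 147 at 15 min, 22.4, 39.7 and 31.8 at 30 min and 0.18 to 29.2 RPKM (median 3.07) later. In Col-0 replicate 2 was the highest library at 0, 15 and 30 min and the lowest at 120 min. All late libraries lay below all 0 min libraries in both ecotypes.

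Of 15 expansins tested 4 were members, the others being EXPA11 (81.5 RPKM at 0 min), EXPA5 (54.3) and EXPB1 (11.2), with late R of 0.0554 to 0.34, 0.38 to 0.46 and 0.12 to 0.22. Of 13 genes for xyloglucan endotransglucosylases tested 2 were members, XTH6 and XTH4, which cut and rejoin xyloglucan in the wall. XTH6 held 227, 316 and 282 RPKM at 0 min in Col-0 and 16.5 to 51.7 RPKM (median 18.2) from 60 min. Its WS values were 63.4, 135 and 112 RPKM at 0 min, 4.64, 4.49 and 53.1 at 120 min and 83.4, 4.45 and 5.23 at 240 min. WS replicate 3 at 120 min and replicate 1 at 240 min stood far above the other libraries of their groups, and the latter overlapped the 0 min range. CSLB04, a cellulose synthase-like protein, was the 1 member among 20 genes of its family tested.

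SAUR genes, small auxin-responsive genes linked to cell expansion, were frequent. By symbol 5 of 13 tested were members, 5 more met the rule in Col-0 only and 1 in WS only, and by product name, a group formed after the members were seen, 11 of 39 were. AT4G38860 held 116, 206 and 91.4 RPKM at 0 min, 26.5, 44.1 and 14.3 at 15 min, 13.5, 34.5 and 4.86 at 30 min and 1.96 to 64.8 RPKM (median 46.0) later in Col-0. In WS the values were 93.2, 118 and 142 RPKM, 8.99, 12.9 and 41.1 and 3.33, 19.6 and 11.02 at these times and 18.3 to 81.8 RPKM (median 34.8) later. All libraries from 15 min on lay below all 0 min libraries in both ecotypes, and the mean was lowest at 30 min and higher at 120 min in each. SAUR20 (31.1 RPKM at 0 min), SAUR24 (29.9), SAUR23 (11) and SAUR26 (9.38) had late R of 0.24 to 0.35, 0.28 to 0.46, 0.25 to 0.43 and 0.22 to 0.41. SAUR20 to SAUR24 lie in a cluster of similar genes on chromosome 5, and their separate levels are uncertain.

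Hormone genes among the members came from several pathways. GA3OX1, which makes active gibberellin, held 19.9, 5.74 and 3.32 RPKM at 0 min and 0.21 to 3.63 RPKM (median 1.55) from 60 min in Col-0, and 19.9, 8.65 and 4.79 and 0.03 to 5.26 RPKM (median 1.57) in WS. Replicate 1 was the highest library at 0 min in both ecotypes, and 1 late library overlapped the 0 min range in each. IAA29, an auxin response repressor, stood at 5.79 RPKM with late R of 0.24 to 0.39, the 1 member of 16 AUX/IAA genes tested. The brassinosteroid genes CPD (synthesis, 69.6 RPKM, late R 0.25 to 0.49) and BAS1 (inactivation, 4.93 RPKM, late R 0.24 to 0.47) were chosen after their values were seen.

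Type-A response regulators, which are induced by cytokinin and dampen its signal, had 3 members of 8 tested, ARR9, ARR15 and RR3. Of the 8, 4 had all late R below 1 and 0 had all late R above 1. RR16 had late R of 0.81 to 2.11 in Col-0 and 1.77 to 3.37 in WS. ARR9 held 43.5, 41.2 and 38.7 RPKM at 0 min, 19.1, 20.1 and 32.3 at 15 min, 14.6, 12.0 and 12.0 at 30 min and 4.15 to 22.1 RPKM (median 10.6) later in Col-0. In WS it held 33.1, 25.7 and 26.5 RPKM, 15.8, 19.3 and 18.7 and 5.36, 9.97 and 6.26 at these times and 1.28 to 11.2 RPKM (median 6.64) later. All libraries from 15 min on lay below all 0 min libraries in both ecotypes. ARR15 (25.8 RPKM) and RR3 (AT2G41310, 20.9 RPKM) had late R of 0.092 to 0.46 and 0.23 to 0.47.

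In the list of PIF factors and shade growth genes 5 of 17 tested were members. They were the factor PIL6 (also PIF5), the helix-loop-helix protein PAR2 of shade responses, EXPA8, GA3OX1 and IAA29. Of the 17, 9 had all late R below 1 and 3 had all late R above 1. PIL6 held 74.5, 74.9 and 47.9 RPKM at 0 min and 9.23 to 30.6 RPKM (median 18.6) later in Col-0, and 84.0, 81.0 and 73.7 and 13.2 to 45.7 RPKM (median 22.6) in WS, without overlap. Its R at 15 min was 0.87 and 0.90. For IAA29, an AUX/IAA protein, R at 15 min was 0.33 and 0.38, but its levels were low and its libraries at 0 min held 1.32, 16.5 and 0.34 RPKM in Col-0 and 7.11, 3.31 and 6.13 in WS, and 4 of 9 late libraries in Col-0 and 2 of 9 in WS reached the 0 min range. PAR2 stood at 8.60 RPKM with late R of 0.19 to 0.37.

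By product name, 28 members encode transcription factors, and the share of such genes among all genes tested was not counted. B-box factors contributed 6 of 22 tested by symbol (27.3%), BBX14, BBX15, BBX16, BBX19, BBX27 and COL2, and 1 more met the rule in WS only. By product name, with CCT zinc fingers included, 6 of 29 tested were members (20.7%). Of these 29, 10 had all late R below 1 and 7 had all late R above 1. BBX14 held 95.2, 133 and 27.8 RPKM at 0 min in Col-0, 16.9, 44.9 and 46.8 at 15 min, 6.49, 5.47 and 6.46 at 30 min, 2.59, 1.82 and 1.1 at 60 min, 5.31, 14.0 and 2.01 at 120 min and 15.2, 27.4 and 14.6 at 240 min. The WS libraries held 64.3, 76.6 and 71.4 RPKM at 0 min, 20.4, 23.6 and 28.7 at 15 min, 2.83, 4.21 and 1.92 at 30 min, 1.07, 1.45 and 0.87 at 60 min, 14.7, 2.61 and 16.6 at 120 min and 38.6, 25.6 and 37.2 at 240 min. The means were lowest at 60 min in both ecotypes and all 3 libraries at 240 min lay above all at 60 min, with R at 240 min of 0.23 in Col-0 and 0.49 in WS.

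The BBX15 means were likewise lowest at 60 min. Its Col-0 level was 235 ± 54.2 RPKM (mean ± SD, n = 3) at 0 min, 35.4 ± 29.9 at 60 min and 92.7 ± 30.8 at 240 min, and its WS level was 261 ± 94.3, 20.2 ± 7.37 and 112 ± 9.64 RPKM. COL2 stayed low, with a Col-0 level of 92.8 ± 18.0 RPKM at 0 min, 5.75 ± 2.53 at 60 min and 7.01 ± 8.93 at 240 min, the spread at 240 min coming from replicate 3 (1.00, 2.77 and 17.3 RPKM). In WS COL2 held 67.0 ± 14.3, 2.28 ± 0.85 and 3.18 ± 1.14 RPKM. BBX16 stood at 145 RPKM at 0 min with late R of 0.052 to 0.28. BBX14 and COL2 overlap annotated genes on the other strand.

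**Figure D2:**
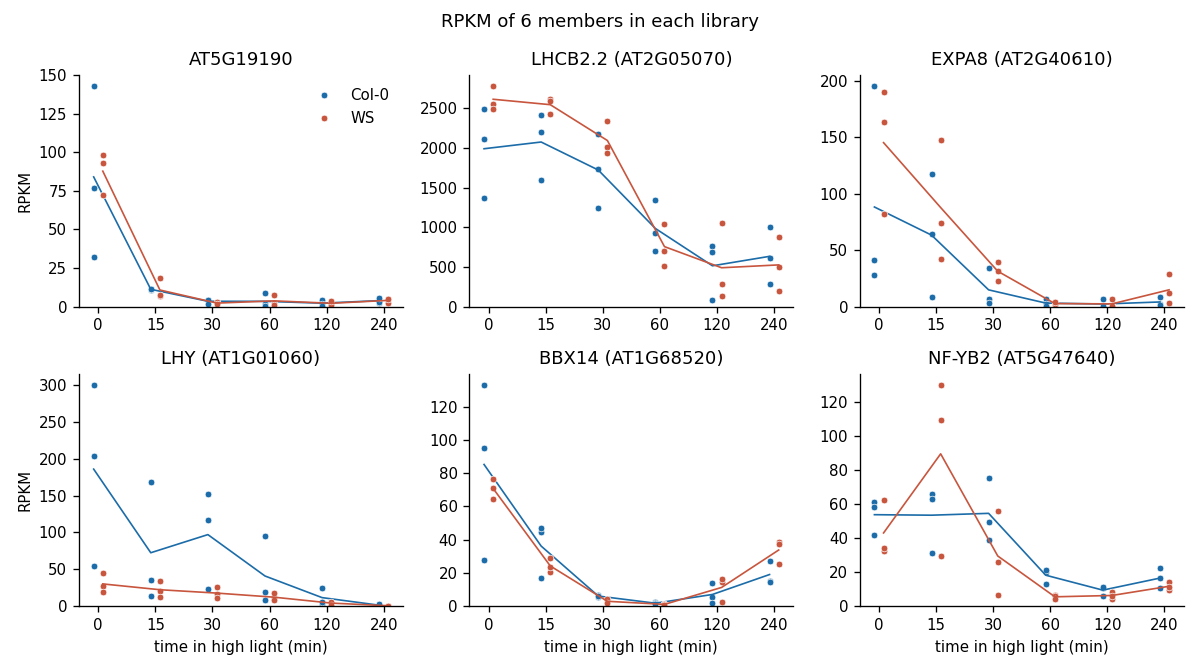
RPKM of AT5G19190, LHCB2.2, EXPA8, LHY, BBX14 and NF-YB2 in each library against sampling time, with times evenly spaced; points are libraries of Col-0 and WS and lines join the group means. LHCB2.2 and NF-YB2 overlap their starting levels at 15 min, AT5G19190 does not, and the BBX14 means are lowest at 60 min.

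Of the morning clock list 2 of 14 genes tested were members, LHY and RVE1, both MYB-like factors that peak around dawn. A further gene met the rule in Col-0 only and 1 in WS only. Of the 14, 8 had all late R below 1 and 1 had all late R above 1. LHY held in Col-0 203, 54.8 and 299 RPKM at 0 min, 13.5, 36.2 and 168 at 15 min, 116, 22.9 and 152 at 30 min, 8.51, 19.8 and 94.8 at 60 min, 3.53, 6.40 and 25.2 at 120 min and 0.34, 1.02 and 2.99 at 240 min. WS leaves held 27.1, 44.6 and 19.1 RPKM at 0 min, 20.2, 34.8 and 12.2 at 15 min, 16.6, 25.9 and 11 at 30 min, 10.8, 17.4 and 8.65 at 60 min, 5.06, 5.71 and 2.13 at 120 min and 0.62, 0.64 and 0.84 at 240 min. In WS each replicate was lower at each later time, whereas in Col-0 replicate 2 was far lower than the others at 0 min and replicate 1 was far lower at 15 min than at 30 min. At 60 min Col-0 replicate 3 still overlapped the 0 min range, and by 240 min all libraries were below 3 RPKM.

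RVE1 held 35.1, 15.3 and 35.2 RPKM in Col-0 libraries and 15.6, 11.9 and 13.1 in WS libraries at 0 min, against 0.09 to 3.57 RPKM (median 1.51) and 0.23 to 4.46 RPKM (median 1.69) over the late libraries, without overlap. CDF2, a cycling DOF factor that represses CONSTANS, stood at 5.70 RPKM with late R of 0.19 to 0.35, and with COL2 gave 2 members of 4 tested in the list of cycling DOF and CONSTANS genes. The evening clock list had 0 members of 11 tested, and in 8 of its genes all 6 late R were above 1.

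Further factors by level were AT1G19000, a MYB-like protein (192 RPKM, late R 0.14 to 0.44), and NF-YB3 (79.4 RPKM, late R 0.0637 to 0.49). By symbol, MYB20 was the member among 34 MYB genes tested, bZIP3 among 23 bZIP genes and ATHB13 among 20 homeobox genes. By product name, in groups formed after the members were seen, 2 of 30 bZIP genes (with BZO2H3) and 2 of 38 homeobox genes (with HAT1) were members. MYB20, bZIP3 and ATHB13 stood at 11.04, 9.69 and 8.59 RPKM with late R of 0.17 to 0.43, 0.11 to 0.25 and 0.14 to 0.40. By symbol, no WRKY (0 of 36), NAC (0 of 24) or ERF and DREB gene (0 of 23) was a member, and 19, 10 and 12 of these had all late R above 1.

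The lists of starch degradation, of the glucose 6-phosphate (G6P) shunt with cytosolic glycolysis, of nitrate and ammonium assimilation and of the low-energy response held 1 member each, a share of 5 to 7.69% of their tested genes beside 1.68% of all genes tested. BMY3 (AT5G18670), a beta-amylase family protein, was the 1 member among 20 starch degradation genes tested, of which 13 had all late R above 1. It held 176, 51.1 and 376 RPKM at 0 min, 12.6, 29.6 and 115 at 15 min, 85.2, 32.5 and 76.7 at 30 min and 0.50 to 21.5 RPKM (median 2.06) later in Col-0. Its WS values were 10.8, 19.8 and 17.2 RPKM, 8.22, 15.9 and 7.65 and 3.14, 7.72 and 3.16 at these times and 0.39 to 2.98 RPKM (median 0.71) later. Col-0 replicate 2 at 0 min and replicate 1 at 15 min were low for BMY3 as they were for LHY, and no late library overlapped the 0 min range in either ecotype.

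G6PD1, a plastid glucose-6-phosphate dehydrogenase that opens the oxidative pentose phosphate pathway, was the 1 member of 13 genes of the G6P shunt and cytosolic glycolysis. It held in Col-0 75.0, 132 and 41.7 RPKM at 0 min, 75.9, 107 and 78.2 at 15 min, 23.9, 21.7 and 19.2 at 60 min, 16.7, 13.4 and 2.51 at 120 min and 21.2, 41.1 and 42.9 at 240 min. In WS it held 145, 102 and 102 RPKM at 0 min, 83.9, 78.0 and 106 at 15 min, 19.8, 14.7 and 15.4 at 60 min, 4.66, 3.70 and 19.4 at 120 min and 47.3, 39.9 and 47.6 at 240 min. Its mean was lowest at 120 min in both ecotypes and R at 240 min was 0.43 and 0.39.

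ASN2, an asparagine synthetase, was the 1 member of 15 nitrate and ammonium assimilation genes (155 RPKM, late R 0.18 to 0.46), and TPS8, a trehalose 6-phosphate synthase-like protein, the 1 member of 13 low-energy response genes (24.2 RPKM, late R 0.17 to 0.44). No gene of the Calvin-Benson cycle (0 of 23), starch synthesis (0 of 17), sucrose synthesis (0 of 15), sulfate assimilation (0 of 12), glucosinolate synthesis (0 of 16) or the cold response (0 of 12) was a member. In the Calvin-Benson list 22 of 23 genes had all late R below 1, with a median late R of 0.644, and 1, PRK, met the rule in WS only. None of 7 reference genes and none of 72 chloroplast-encoded or 6 mitochondria-encoded genes was a member.

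**Figure D3:**
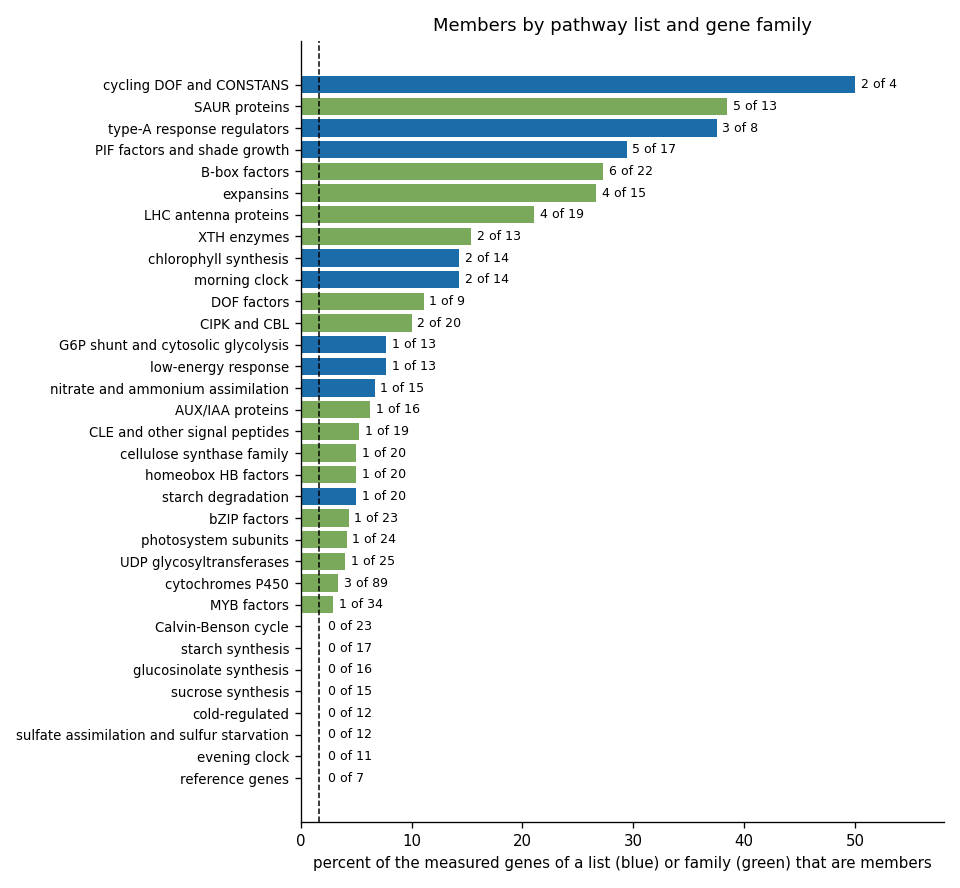
Percent of the tested genes of each pathway list (blue) and gene family (green) that were members, with the number of members and of genes tested; families without members and groups of fewer than 4 tested genes are not drawn. The dashed line marks the 1.68% of all genes tested that were members; B-box factors reach 27.3% and the evening clock list 0.

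Among the other abundant members, CP5 (641 RPKM, late R 0.14 to 0.34) belongs to a lipid transport superfamily, AT2G10940 (493 RPKM, late R 0.20 to 0.39) to the lipid-transfer proteins, DGAT3 (306 RPKM, late R 0.0943 to 0.39) is a diacylglycerol acyltransferase and FRO6 a ferric reductase of the leaf. FRO6 held 127, 363 and 98.4 RPKM at 0 min and 0.83 to 48.8 RPKM (median 20.5) later in Col-0, and 167, 279 and 483 and 4.05 to 101 RPKM (median 27.5) in WS, without overlap. GASA6 held 50.6, 312 and 79.9 and 0.16 to 11.5 RPKM (median 4.43) in Col-0, and 109.8, 301 and 442 and 1.13 to 55.9 RPKM (median 16.5) in WS, also without overlap. The Col-0 libraries at 0 min differed by more than 3-fold for both genes, with replicate 2 the highest. The phenylpropanoid genes HCT, 4CL1 and FLS1, chosen after their values were seen, stood at 135, 82.3 and 55.5 RPKM with late R of 0.11 to 0.44, 0.21 to 0.35 and 0.12 to 0.43.

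Smaller groups held P450 enzymes (3 of 89 tested by symbol, CYP71B2, CYP96A12 and CYP71B12, and 5 of 94 by product name, with CPD and BAS1), CIPK kinases (2 of 20, CIPK5 and CIPK15), GASA6 (1 of 3 GASA genes), UGT88A1 (1 of 25 UDP glycosyltransferases by symbol, and 2 of 55 by product name, with AT2G18560) and CLE42 (1 of 19 signal peptides). Of 17 genes with a bHLH, PIF or BEE symbol none was a member and 5 met the rule in Col-0 only, but by product name 3 of 64 bHLH genes were members, PIL6, HBI1 and AT4G01460. Members without a coding sequence included TAS3, the source of small RNAs against auxin response factors (37.2 RPKM, late R 0.12 to 0.33), and AT5G02515, which overlaps AT5G16030 on the other strand.

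The readings at 15 and 30 min did not enter the ratios of the rule, though they could meet its floor. The comparison of 30 with 15 min within each ecotype was tested with limma on log2(RPKM + 1) over all 13817 genes with Benjamini-Hochberg adjustment. In WS 4 of 232 members were lower at 30 min (1.72%, against 0.0868% of all genes lower) and 0 were higher (against 0.0217%). In Col-0 0 members were lower (against 0.0145%) and 0 higher (against 0%). At an unadjusted p under 0.05, limma gave 74 members for Col-0 (31.9%) and 87 for WS (37.5%), each of them lower at 30 min, against 3.21% of all genes lower and 5.86% higher in Col-0 and 4.04% lower and 3.42% higher in WS. The tool limma-voom, on reads recovered from the RPKM values of 13739 genes, called 0 members in Col-0 and 1 in WS. Over all genes it called 3 in Col-0 and 3 in WS.

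The 4 members called in WS were TRP1, a telomere repeat binding protein, AT3G26510, a PB1 domain protein, BBX14 and CIPK5, a protein kinase of calcium signalling. TRP1 held 12.6, 11.7 and 14.6 RPKM at 15 min and 3.33, 5.02 and 4.03 at 30 min, a log2 difference of -1.45 ± 0.25 (SE) with an adjusted p of 0.0099 in limma. For BBX14, with its WS values above, the difference was -2.69 ± 0.54 (SE) (limma adjusted p = 0.0426). CIPK5 held 30.7, 46.6 and 18.0 and 3.89, 17.0 and 1.66 RPKM, a difference of -2.31 ± 0.47 (SE) (limma adjusted p = 0.0426), and AT3G26510 differed by -1.46 ± 0.27 (SE) (limma adjusted p = 0.0378). In each of the 4 genes all 30 min libraries in WS lay below all 15 min libraries. In Col-0 the same genes differed by -0.98 ± 0.25 (SE), -2.25 ± 0.54 (SE), -0.53 ± 0.47 (SE) and -0.11 ± 0.27 (SE), none past the adjusted threshold.

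With the replicate number as a block, which would be the plant, 11 members were called in WS and 0 in Col-0, all 11 lower at 30 min, where over all genes this fit called 27 lower and 5 higher in WS and 5 lower and 5 higher in Col-0. Without all libraries of WS replicate 1, or of WS replicate 3, or of Col-0 replicate 1, 0 members were called in WS, and without WS replicate 2 1 was. The calls over all genes in the fits without a replicate are not given here. A further alternative, chosen after seeing the data, left out 4 libraries. These were Col-0 replicate 1 at 60 and 120 min, WS replicate 3 at 120 min and WS replicate 1 at 0 min. Without them 4 members were called in Col-0 and 8 in WS, all lower. Over all genes 26 were then lower and 118 higher in Col-0, and 22 lower and 12 higher in WS.

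The sign of the difference was shared by most members. In each ecotype 219 of 232 members (94.4%) had a lower mean log2 level at 30 than at 15 min, with a median log2 difference of -0.69 in Col-0 and -0.71 in WS, whereas over all genes tested 44.4% and 47.6% were lower and the medians were 0.04 and 0.01. Every 30 min library lay below every 15 min library for 82 members in Col-0 (35.3%, against 5.18% of all genes), for 120 in WS (51.7%, against 8.83%) and for 66 in both (28.4%, against 2.01%). The difference between ecotypes in this step was tested as an interaction in limma, which called 0 members and 0 of all genes, with 4 and 175 at an unadjusted p under 0.05. With limma-voom 0 members and 0 of all genes were called.

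**Figure D4:**
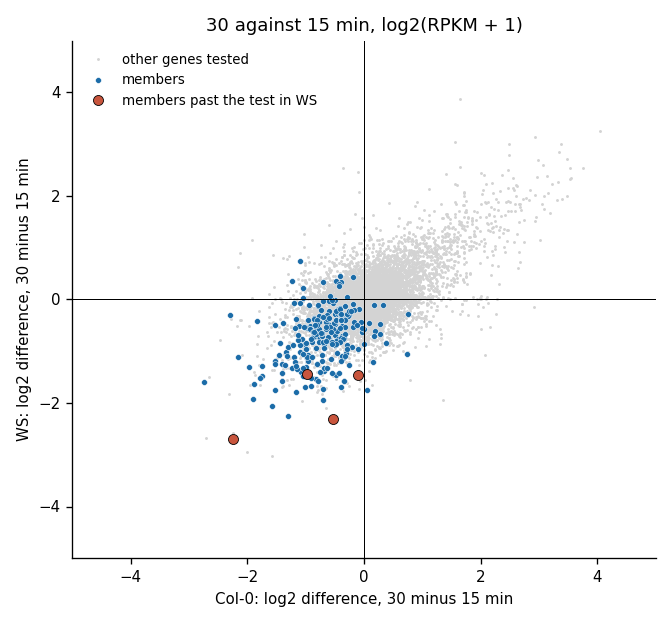
Difference in mean log2(RPKM + 1) between 30 and 15 min in WS (vertical axis) against Col-0 (horizontal axis) for members (blue, with the 4 called in WS in red) and all other genes tested (grey). In each ecotype 219 of 232 members lie below 0, while the medians of all genes are 0.04 and 0.01.

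Levels of the members in the 2 ecotypes were compared at 15 and 30 min, which the ratios of the rule did not use. The floor of 7 RPKM could be met by a reading of 1 ecotype alone, also at 15 or 30 min. These comparisons were therefore not fully independent of the rule. Reads of both ecotypes were aligned to the same genome build, TAIR10. Whether sequence differences between the ecotypes changed the levels read for WS was not tested, here or in any other comparison between ecotypes. At 15 min limma called 6 members lower in WS than in Col-0 (2.59%, against 3.18% of all genes) and 0 higher (against 2.42%). By limma 26 members were at an unadjusted p under 0.05 (11.2%, against 15.96%), 10 of them higher. With limma-voom 6 members were called, and 704 of all 13739 genes in that fit. At 30 min 14 were lower (6.03%, against 5.46%) and 3 higher (1.29%, against 2.84%), with 43 members at an unadjusted p under 0.05 (18.5%, against 21.0%). With limma-voom 12 members were called, and 915 of all 13739 genes. The shares of members called were thus close to or below those of all genes. The 15 min count was 10 without Col-0 replicate 1, and the 30 min total of 17 was 10 without Col-0 replicate 1, 8 without WS replicate 1 and 6 without WS replicate 3. Shares of all genes called in these fits are not given here, so the changes in count are not read as results about the members.

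The largest of these differences in test strength was in AT4G13575, an uncharacterized protein gene. It held 85.3, 104 and 162 RPKM in Col-0 and 14.2, 9.69 and 16.5 in WS at 15 min, and 45.9, 67.6 and 42.9 and 7.59, 7.03 and 7.20 at 30 min. WS was lower in all libraries, by a log2 difference of -3.00 ± 0.36 (SE) at 15 min (limma adjusted p = 7.5e-07) and -2.65 ± 0.36 (SE) at 30 min (limma adjusted p = 6.2e-06). Its neighbour AT4G06115, an RNA with no coding sequence, held 20.1, 21.8 and 23.9 RPKM in Col-0 and 1.68, 3.53 and 3.06 in WS at 15 min, a difference of -2.64 ± 0.35 (SE) (limma adjusted p = 3.9e-06). Both genes nevertheless met the rule in both ecotypes, with R at 240 min of 0.28 and 0.26 for the first, and 0.39 and 0.34 for the second.

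At 15 min WS was also lower for MYB20 (-1.36 ± 0.27 (SE), limma adjusted p = 0.00131) and ARAB-1, a GDSL lipase (-1.24 ± 0.25 (SE), limma adjusted p = 0.0016). At 30 min it was lower for ARAB-1 (-1.55 ± 0.25 (SE), limma adjusted p = 0.000104), BMY3 (-3.51 ± 0.61 (SE), limma adjusted p = 0.000211) and AT4G06115 (-1.70 ± 0.35 (SE), limma adjusted p = 0.00169). It was higher at 30 min for GDPD6, a glycerophosphodiester phosphodiesterase (2.50 ± 0.55 (SE), limma adjusted p = 0.00335), AT3G54830, an amino acid transporter family protein (1.63 ± 0.45 (SE), limma adjusted p = 0.0214), and ASN2 (1.51 ± 0.42 (SE), limma adjusted p = 0.023). The call of AT3G54830 was lost without Col-0 replicate 3 or any of the WS replicates, and that of ASN2 without any replicate other than Col-0 replicate 2.

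At 0 min 146 members were within 1.5-fold between the ecotypes, 52 were higher in Col-0 and 34 in WS. The 6 with the largest difference were BMY3, LHY, AT4G13575 and AT4G06115, higher in Col-0, GDPD6, higher in WS, and 4CL3, a coumarate ligase of phenylpropanoid synthesis, higher in Col-0. GDPD6 held 1.44, 6.02 and 0.25 RPKM in Col-0 libraries and 21.2, 15.8 and 11.6 in WS libraries at 0 min, so its late ratios in Col-0 start from low readings and 6 of 9 late libraries overlapped the 0 min range. 4CL3 held 107, 6.44 and 50.9 RPKM in Col-0 and 9.32, 22.4 and 4.16 in WS at 0 min, and late libraries overlapped the 0 min range in both ecotypes. In WS no late library of GDPD6 reached the 0 min range.

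Genes chosen in 1 ecotype were also tested in the other, whose libraries entered that choice only through the floor of 7 RPKM in any of the 36 readings. Of the 475 genes chosen on Col-0 alone, 208 (43.8%) were lower in WS at each of 60, 120 and 240 min than at 0 min by limma at an adjusted p under 0.05, against 3.44% of all genes tested. Of the 392 chosen on WS alone, 178 (45.4%) were lower in Col-0 at all 3 times, against 3.77%. Where the floor had to be met by a library of the choosing ecotype, an alternative chosen after the values were seen, 204 of 467 genes (43.7%, against 3.37% of 12979) were lower in WS and 167 of 376 (44.4%, against 3.63% of 12934) in Col-0. The first count was 135, 105 and 126 without WS replicate 1, 2 or 3, and the second was 105 and 57 without Col-0 replicate 1 or 2. Shares of all genes are not given for these fits. Fewer calls over all genes and fewer calls among the chosen genes are therefore not told apart.

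Features of the genes that the rule did not use were described without a test. All 232 members were found in the RefSeq annotation of TAIR10.1, which is the sequence of TAIR10, and lay on chromosomes 1 to 5 in numbers of 79, 34, 35, 30 and 54. No intron was annotated in 54 members (23.3%, against 14.1% of genes tested). The median number of introns was 2 against 4, and the median exon length was 1734 bases against 1736. Genes that met the rule in Col-0 only had no intron in 31.3%, and those in WS only in 17.7%, with a median of 2 introns in each set. RNAs annotated as lncRNA numbered 4 (1.72%, against 0.55%). In 25 members another member was the next tested gene, in 14 pairs, among them SAUR22 with SAUR23, SAUR20 with AT5G18030, AT1G29450 with AT1G29460 and AT4G06115 with AT4G13575. Another annotated gene overlapped 58 members, on the other strand in 49, and the strand setting of the counting is not given in the sources used here, so reads of such partners cannot be told apart.

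The 250 bases upstream of each annotated start were searched on both strands for 13 motifs. The I-box, GATAAG, known from light-regulated genes, occurred upstream of 54 members (23.3%, against 12.8% of genes tested and 12.7% of all 37897 promoters). The TATCCA element, TATCCA, known from sugar- and light-regulated genes, occurred in 24.1% of members, 14.7% of genes tested and 13.1% of all. The morning element CCACAC occurred in 11.6% of members, 6.68% of genes tested and 6.13% of all, and SORLIP1, GCCAC, in 22.8%, 16.4% and 14.9%. In the Col-0 only and WS only sets the morning element was in 8.23% and 10.8%, and SORLIP1 in 21.8% and 18.4%. The G-box CACGTG, a site of PIF and other factors, occurred in 10.3% of members, 7.94% of genes tested and 5.39% of all. The HUD element CACATG was in 15.1%, 11.1% and 10.9%, and in 17.7% of the Col-0 only and 15.2% of the WS only set. For the CCA1-binding site AAAAATCT the shares were 7.76%, 6.94% and 6.11%. The auxin response element TGTCTC was in 10.8%, 10.4% and 10.9%, and the telo-box AAACCCTA in 1.72%, 3.66% and 4.8%. Shares were close for the W-box core TTGAC (44.4%, 44.5% and 43.9%) and the TATA box TATAAA (44.0%, 45.4% and 44.6%). The evening element AAAATATCT was in 1.29% of members, 2.62% of genes tested and 2.11% of all, and the DRE core CCGAC in 9.05%, 13.5% and 12.0%. The GC content of these windows was 30.8% in members and 31.6% in genes tested, and a match of letters is a description and not a site.

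Both the I-box and the TATCCA element occurred upstream of 17 members (7.33%, against 2.75% of genes tested and 2.31% of all promoters), and the motifs overlapped each other in 9 of these (3.88%, against 1.29% and 0.968%). At least 1 of both occurred in 93 members (40.1%, against 24.7% and 23.5%). Of the 17 windows 12 were clear of other genes, and the 4 of these with the highest level at 0 min are shown because they hold the motif pair with the widest gap in share. They are written from 5′ to 3′ on the strand of the gene, from RefSeq TAIR10.1, with both motifs in capitals. They are FRO6 at chr5:20204596-20204845 (minus strand), GPRI1 at chr2:8855052-8855301 (plus strand), AT1G19000 at chr1:6562792-6563041 (minus strand) and BBX14 at chr1:25710990-25711239 (minus strand).
FRO6: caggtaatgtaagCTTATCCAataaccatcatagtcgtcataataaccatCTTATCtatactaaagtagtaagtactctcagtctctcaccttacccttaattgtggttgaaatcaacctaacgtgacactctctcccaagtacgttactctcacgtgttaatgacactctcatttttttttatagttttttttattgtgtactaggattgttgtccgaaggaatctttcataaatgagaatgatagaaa
GPRI1: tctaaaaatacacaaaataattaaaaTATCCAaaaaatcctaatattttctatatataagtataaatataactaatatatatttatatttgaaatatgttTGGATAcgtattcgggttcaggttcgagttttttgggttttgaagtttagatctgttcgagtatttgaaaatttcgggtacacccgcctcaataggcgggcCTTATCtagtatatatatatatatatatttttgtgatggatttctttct
AT1G19000: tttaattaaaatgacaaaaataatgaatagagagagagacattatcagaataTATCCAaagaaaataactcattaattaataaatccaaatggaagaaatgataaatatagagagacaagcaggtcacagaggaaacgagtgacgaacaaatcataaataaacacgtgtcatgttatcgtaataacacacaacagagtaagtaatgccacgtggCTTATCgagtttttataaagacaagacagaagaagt
BBX14: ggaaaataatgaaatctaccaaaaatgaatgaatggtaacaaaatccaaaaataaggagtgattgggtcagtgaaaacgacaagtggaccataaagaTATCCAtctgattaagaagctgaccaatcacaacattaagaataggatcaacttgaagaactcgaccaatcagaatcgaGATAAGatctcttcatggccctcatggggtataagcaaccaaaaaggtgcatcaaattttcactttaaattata
In FRO6 an I-box on the other strand overlaps a TATCCA element between 237 and 230 bases upstream, and a further I-box, also on the other strand, lies 200 to 195 bases upstream. In GPRI1 the I-box, on the other strand, lies 49 to 44 bases upstream and TATCCA elements lie 224 to 219 and, on the other strand, 150 to 145 bases upstream. In AT1G19000 the I-box, on the other strand, is 36 to 31 bases upstream, and in BBX14 it is 74 to 69 bases upstream. The 4 genes had different courses, with R at 15 min in Col-0 of 0.98 for FRO6, 0.44 for GPRI1, 0.83 for AT1G19000 and 0.43 for BBX14.

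**Figure D5:**
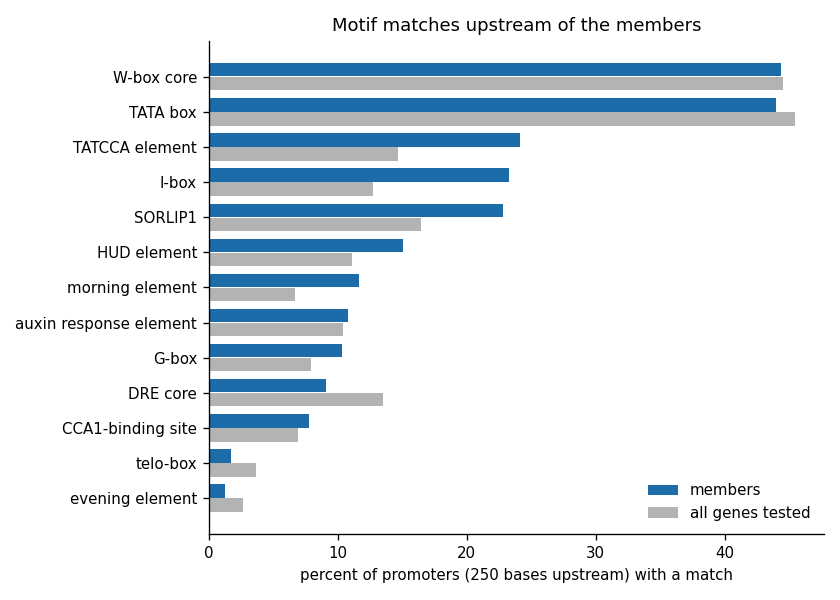
Percent of the 250-base upstream windows that hold each motif, for members (blue) and all genes tested (grey). The I-box (23.3% of members against 12.8% of genes tested) and the TATCCA element (24.1% against 14.7%) show the widest gaps, the DRE core is less frequent in members (9.05% against 13.5%), and the W-box core and TATA box show almost no gap.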

How the data were processed

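Leaf RNA of 36 libraries, 3 per ecotype and time, was sequenced, and the authors used Trimmomatic 0.32 for trimming, STAR 2.3.0e for alignment (genome build TAIR10) and featureCounts for read counts per gene. The RPKM values deposited by the authors, 1 column per library, were used; no named sample column was left out (0 of 36), and the strand setting is not given in the sources used here. RPKM depends on the total of each library, so a few abundant genes can shift all others. Among low readings of short genes, precise enough to show single reads (19 to 934 per library), RPKM times exon length and depth came out within 0.1 of a whole read in 99.7 to 100%; such reads, estimated for all genes, served an alternative fit. The GEO time labels are in hours and give another value for the 30 min leaves, whose time was taken from the titles.

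The rule was applied to group means. Tests used limma 3.58.1 in R 4.3.3 on log2(RPKM + 1), all 12 groups in one fit (24 residual degrees of freedom, trended variance), over 13817 genes with a reading above 7 RPKM, with Benjamini-Hochberg adjustment at 0.05; fold changes on this scale understate changes of low genes. The members and all gene lists were chosen with earlier results of these data known. Genes were named by rule: the 10 highest at 0 min, the 10 lowest late ratios, 3 on each side of the limit, up to 4 per test and direction, up to 4 per list, the 6 lowest and 4 highest before 60 min, the 4 lowest and 4 highest from 60 to 240 min, 8 transcription factors and the 6 largest ecotype differences; others are marked. Alternatives were another pseudocount, filters, TPM, median of ratios, medians, other ratio limits, a replicate block, limma-voom and leaving out each replicate.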

Additional observations from a re-analysis of the deposited data

How the results depend on the processing

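The 232 members were 109 with R at most 0.4 and 427 with R at most 0.6. Under a pseudocount of 0.1 there were 295 and under TPM 188. They numbered 188 to 259 with 1 replicate left out, and 177 to 222 of these were members. Calls between 30 and 15 min in WS, 4 in all, became 1 with a pseudocount of 0.1, 2 with no filter, 7 with TPM, 1 with limma-voom and 0 to 5 with 1 replicate left out. The numbers of the replicates are taken as plants from the methods, which do not say so outright. The mean correlation of deviations within a number was -0.00066 to 0.202 in Col-0 and 0.169 to 0.191 in WS. With the replicate block the calls between 30 and 15 min were 11 in WS and 0 in Col-0, those between ecotypes 6 at 15 min and 16 at 30 min, and those of genes chosen in the other ecotype 224 in WS and 197 in Col-0. Without the 4 libraries named above, an alternative chosen after seeing the data, calls between 30 and 15 min were 4 in Col-0 and 8 in WS. Calls between ecotypes were 4 to 10 at 15 min and 6 to 18 at 30 min with 1 replicate left out, and 9 at 30 min with only the 2 groups in the fit. Genes chosen on Col-0 and called in WS were 105 to 221, and genes chosen on WS and called in Col-0 57 to 173, with 1 replicate left out. No share of all genes called stands beside the counts of this section, so changes in them are not read as results about the members. Among single named genes 201 alternative values stayed on their side of the threshold, 39 passed from called to not called and 0 changed sign. By the inferred depths, low members are limited most in WS replicate 1 at 0 min, where 1 read in 1 kilobase was 0.132 RPKM. The causes of these changes were not tested.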
